A study of Saccharomyces cerevisiae with 6 samples.

Results

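Ribonucleotide reductase is the enzyme that turns ribonucleotides into the deoxyribonucleotides of DNA. The genes described are its 4 subunit genes in the yeast Saccharomyces cerevisiae, RNR1, RNR3, RNR2 and RNR4, the gene of its protein inhibitor, SML1, and the gene of DUN1, the checkpoint kinase that lifts both the inhibition and the repression of the enzyme. They were chosen by their systematic ORF names, and all 6 were found among the 5657 genes measured, each with 1 probe set of its own. Messenger RNA came from the wild-type strain CEN.PK 113-7D, a laboratory haploid, in aerobic baffled shake flasks, with 1 Affymetrix array per culture. BSA, by its usual meaning the cow serum protein albumin, was present in 3 cultures and absent from the 3 controls; strain, flasks and handling were otherwise described alike. The sources used here do not state the amount of BSA or the medium, and the labels disagree on sampling, which one places at 48 h and another early in growth on glucose.

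The working enzyme joins a large subunit, which holds the catalytic and the regulatory sites, to a small subunit, which holds the iron and tyrosyl radical cofactor. RNR1 encodes the main large subunit and RNR3 a paralog known for strong induction by DNA damage. RNR2 encodes the small subunit that carries the cofactor, and RNR4 its partner, which is needed to fold and load Rnr2. Sml1 binds Rnr1 and is removed when DNA is copied or damaged, through the kinases Mec1, Rad53 and Dun1. The same kinases release the repressor Crt1, the product of RFX1, from the RNR2, RNR3 and RNR4 promoters. The small subunit is held in the nucleus by Wtm1 and moves to the cytoplasm, where the large subunit lies.

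With BSA, transcripts of both small subunit genes and of DUN1 were lower, the RNR3 transcript was higher, and RNR1 and SML1 did not pass the test. RNR2 was 2.1-fold lower and RNR4 1.93-fold lower, DUN1 was 1.39-fold lower and RNR3 1.31-fold higher. Changes are differences of log2 expression values, BSA minus no BSA, tested with limma over all genes and called at a Benjamini-Hochberg adjusted p under 0.05. By this rule 1 member rose and 3 fell. In cultures of mixed cell cycle stage, fewer expressing cells and less mRNA per cell cannot be told apart. A call by itself sets no gene apart here, since 75.4% of all genes were called, 28.3% higher and 47.1% lower. For 4 of the 6 members the groups were fully apart, which held for 79.5% of all genes. The share of called genes that were higher, 37.6%, became 50.3% with arrays centred on the median deviation from gene means and 49.0% after cyclic loess normalization. The median of all genes was -0.13, and changes relative to it are given as well.

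**Figure D1:**
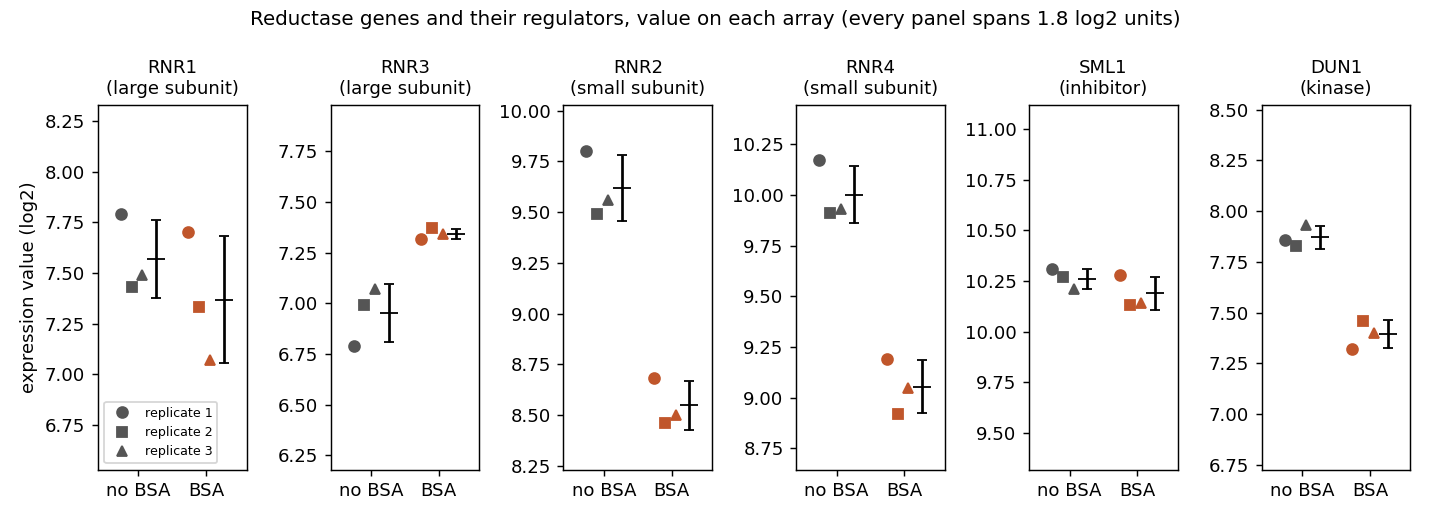
Deposited log2 expression value of each of the 6 genes (vertical axis, log2) on each array without BSA (grey) and with BSA (orange). Circles, squares and triangles are replicates 1, 2 and 3, the bar beside them is the mean ± SD of 3 arrays, and every panel covers the same span. RNR2, RNR4 and DUN1 lie lower with BSA on all 3 arrays and RNR3 lies higher, while the groups overlap for RNR1 and SML1.

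RNR2 (YJL026W, probe set 1774675_at) read 9.80, 9.49 and 9.56 on the log2 scale in the controls and 8.68, 8.46 and 8.50 with BSA. Every array with BSA lay below every control, and the gap of 0.81 between the groups exceeded the range of 0.31 within the controls and of 0.22 with BSA. The mean went from 9.62 ± 0.16 to 8.55 ± 0.12 (SD, n = 3 arrays per group), a difference of -1.07 ± 0.10 (SE; limma adjusted p = 3.97e-05), or -0.94 relative to the median of all genes. RNR2 was among the 111 genes (1.96% of all) that were called and at least 2-fold lower, and only 1.33% of genes had a lower difference.

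RNR4 (YGR180C, probe set 1776155_at) read 10.17, 9.91 and 9.93 in the controls and 9.19, 8.92 and 9.05 with BSA. These groups, too, were apart, with a gap of 0.72 against ranges of 0.25 and 0.26 within them. The difference was -0.95 ± 0.09 (SE; limma adjusted p = 6.25e-05), or -0.82 relative to all genes, and 2.53% of genes had a lower one. The small subunit genes followed each other on all arrays: with each gene centred on its own mean, the root mean square distance between their 6 values was 0.0697. Of 5656 other genes, 4 were closer to RNR2 than RNR4 was, and 13 were closer to RNR4 than RNR2 was. This is a description over 6 arrays that share the group difference.

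RNR1 (YER070W, probe set 1778919_at) read 7.79, 7.43 and 7.49 in the controls and 7.70, 7.33 and 7.07 with BSA. The groups overlapped, because BSA replicate 1 lay above control replicates 2 and 3. The difference was -0.20 ± 0.16 (SE), with a 95% interval of -0.58 to 0.18 (limma adjusted p = 0.288). RNR1 had the widest spread of the 6 genes, with an SD of 0.31 among the BSA arrays. Its call depended on a single array: without BSA replicate 1 the difference was -0.37 and passed (limma adjusted p = 0.0377), and with arrays weighted by their fit it was -0.26 and passed (limma adjusted p = 0.0235).

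RNR3 (YIL066C, probe set 1780044_at), the damage-inducible large subunit gene, read 6.79, 6.99 and 7.07 in the controls and 7.32, 7.37 and 7.34 with BSA. All 3 arrays with BSA were above the controls, by a gap of 0.25, and they spanned only 0.05. The mean went from 6.95 ± 0.14 to 7.34 ± 0.03 (SD, n = 3), a difference of 0.39 ± 0.08 (SE; limma adjusted p = 0.00202), or 0.52 relative to all genes. This was a moderate change among all genes, of which 79.2% had a lower difference. The RNR3 signal stayed below the array median on every array. Rnr1 and Rnr3 are close paralogs, and signal shared between their probe sets was not tested.

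SML1 (YML058W, probe set 1779490_at), the inhibitor gene, read 10.31, 10.27 and 10.21 in the controls and 10.28, 10.13 and 10.14 with BSA. The groups overlapped within a narrow span. The difference was -0.07 ± 0.06 (SE; limma adjusted p = 0.282), and its 95% interval ran from -0.21 to 0.06. Its sign depended on the scaling, being 0.059 with arrays centred on the median deviation from gene means and 0.000830 after cyclic loess, and neither passed.

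DUN1 (YDL101C, probe set 1773949_at) read 7.86, 7.83 and 7.93 in the controls and 7.32, 7.46 and 7.40 with BSA. The groups were apart by 0.36, against ranges of 0.11 and 0.14 within them. The difference was -0.48 ± 0.06 (SE; limma adjusted p = 0.000172), or -0.34 relative to all genes. As 20.6% of genes had a lower difference, the size of the DUN1 change was common on these arrays.

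**Figure D2:**
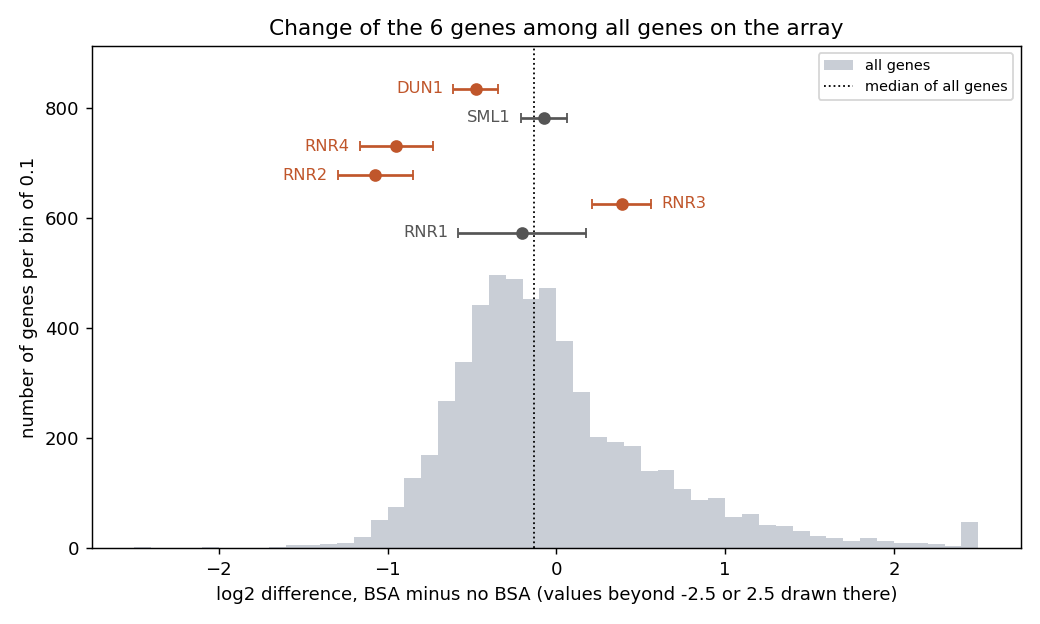
Number of genes (vertical axis) by log2 difference, BSA minus no BSA (horizontal axis), for all 5657 genes, with the 6 genes drawn above as points with their 95% intervals from limma (orange, called; grey, not called). The dotted line is the median of all genes, -0.13. RNR2 and RNR4 lie in the lower tail, RNR3 on the upper side, and the intervals of RNR1 and SML1 cover 0.

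Whether 2 of the genes changed by different amounts was tested on their difference within each array, which no scaling that shifts a whole array can alter. All 15 pairs were compared with an exact two-sided permutation test over arrays, whose smallest possible p with 3 against 3 arrays is 0.1. No pair could therefore pass, and 13 of the 15 pairs reached that smallest p (0.115 after Benjamini-Hochberg adjustment). The widest contrast was between RNR3 and RNR2, whose changes differed by 1.46 on the log2 scale, followed by RNR3 and RNR4 with 1.34. Leaving out any 1 array kept the first of these between 1.29 and 1.55.

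The contrast between the large subunit paralogs was larger than the SD within either group, but the groups were only narrowly apart. The log2 value of RNR1 less that of RNR3 was 0.99, 0.44 and 0.42 in the controls and 0.38, -0.04 and -0.26 with BSA. The means of this value differed by -0.59 between the groups (SDs of 0.33 in each, n = 3; exact permutation p = 0.1), and the nearest arrays of the 2 groups were only 0.04 apart. As no pair could pass this test, it does not decide whether these paralogs differed in their change. Between the small subunit genes the contrast was -0.12, with -0.36, -0.42 and -0.37 in the controls and -0.51, -0.46 and -0.56 with BSA (exact permutation p = 0.1). Against SML1, the change of RNR2 was -0.998 and that of RNR4 -0.87 (exact permutation p = 0.1 for each). The pairs that missed the smallest p were RNR1 with SML1 (-0.13, exact permutation p = 0.5) and RNR1 with DUN1 (0.28, exact permutation p = 0.3).

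Replicate 1 stood somewhat apart in each group. RNR1, RNR2, RNR4 and SML1 were highest in replicate 1 both with and without BSA, and RNR3 was lowest there in both. Over all genes, 14.6% were highest and 24.3% lowest in replicate 1 of both groups. Control replicate 1 differed from the other controls with an SD over genes of 0.194 and 0.198, against 0.0567 between control replicates 2 and 3, which were the closest pair of arrays. With BSA the SDs were 0.195 and 0.172 for pairs with replicate 1 and 0.117 for the other pair. Between the groups such SDs were 0.625 to 0.732. With control replicates 2 and 3 counted as 1 sample, the calls of the 6 genes did not change. The mating type of the strain was not settled on marker genes, since levels of different probe sets share no scale. Without BSA, means of 6 a-cell genes (7.74 to 9.30) lay above those of 4 alpha-cell genes (5.44 to 6.97). With BSA the ranges (6.55 to 9.28 and 5.24 to 6.66) overlapped, through the a-cell gene BAR1 (6.55). Means below the lowest first quartile of the arrays (6.76) in both groups at once were found for 3 alpha-cell genes and 0 a-cell genes. With BSA only, BAR1 and the alpha-cell gene SAG1 (6.66) lay below it as well.

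The genes most like each member were those with the smallest root mean square distance between the 6 centred log2 values, out of all genes that are not members. For RNR1 they were TOS4 (0.0705) and YNL058C (0.0900), against a median distance of 0.291 over all genes. TOS4 had the same replicate pattern, reading 6.54, 6.26 and 6.26 in the controls and 6.30, 6.06 and 5.85 with BSA. For RNR2 they were YBR071W (0.0390) and CHS6 (0.0505), and for RNR4 YPS3 (0.0428) and SHO1 (0.0477). RNR3 was nearest to DSE3 (0.0294) and HLJ1 (0.0347), SML1 to YFL067W (0.0125) and NVJ2 (0.0175), and DUN1 to SAP190 (0.0147) and CDC24 (0.0197).

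Genes of 14 checkpoint kinases and sensors, a list that includes MEC1 and RAD53, changed in both directions. Of these, 6 fell and 2 rose, beside 47.1% lower and 28.3% higher over all genes, and the median was -0.17, close to the -0.13 of all genes. The higher genes became 4 with arrays centred on the median deviation from gene means and 5, against 4 lower, after cyclic loess. MEC1, the kinase at the head of the pathway, read 8.08, 7.91 and 8.02 in the controls and 7.14, 7.25 and 7.33 with BSA, a difference of -0.77 ± 0.07 (SE; limma adjusted p = 4.24e-05). RAD53, the kinase that activates Dun1, changed by -0.31 ± 0.06 (limma adjusted p = 0.00148), a call lost after cyclic loess (-0.11, adjusted p = 0.0953). MRC1, a mediator of the replication checkpoint, fell by 0.62, while the kinase gene CHK1 rose by 0.43 and DPB11, which activates Mec1, by 0.42.

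Among the transcription factors, repressors of RNR genes moved in opposite directions. RFX1, which encodes the DNA-binding repressor Crt1, read 7.22, 7.49 and 7.45 in the controls and 8.64, 8.68 and 8.74 with BSA. The groups were far apart, and the difference was 1.30 ± 0.08 (SE; limma adjusted p = 8.54e-06). ROX1, a repressor of hypoxic genes also known to act at RNR promoters, rose by 1.04 ± 0.06 (limma adjusted p = 8.54e-06). The corepressor genes fell slightly, CYC8 by 0.25 ± 0.05 (limma adjusted p = 0.00303) and TUP1 by 0.33 ± 0.08 (limma adjusted p = 0.00553). The CYC8 call was lost with centring on the median deviation (-0.12, adjusted p = 0.0848) and after cyclic loess (-0.08, adjusted p = 0.25). MOT3, a repressor that works with Rox1, was at 0.10 ± 0.05 (limma adjusted p = 0.0855) and passed as higher under the 4 other scalings tried (adjusted p = 0.00134 to 0.0248).

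Factors known for RNR1 also differed in direction. IXR1, which supports RNR1 expression, read 8.29, 8.47 and 8.48 in the controls and 9.84, 9.24 and 9.13 with BSA. It was higher on every array with BSA, most of all in replicate 1, by 0.99 ± 0.17 (SE; limma adjusted p = 0.00119). MBP1 and SWI6, which form the factor that drives RNR1 in late G1, changed by -0.45 ± 0.05 (limma adjusted p = 0.000184) and -0.34 ± 0.05 (limma adjusted p = 0.000719), the SWI6 call being lost after cyclic loess (-0.15, adjusted p = 0.0552). SWI4, the DNA-binding partner of Swi6 in a related factor, fell by 0.49. In all, limma called 3 of the 10 transcription factor genes higher and 5 lower, around a median of -0.19. These counts were close to the shares over all genes, 28.3% higher and 47.1% lower.

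**Figure D3:**
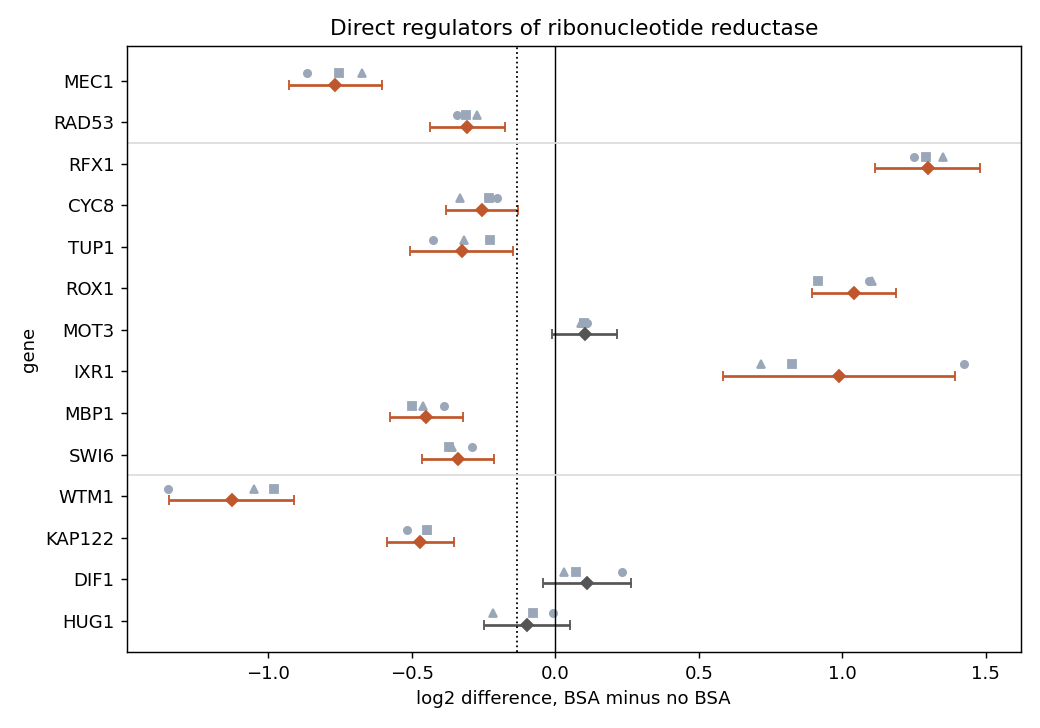
Log2 difference, BSA minus no BSA (horizontal axis), of direct regulators of the reductase (vertical axis): checkpoint kinases at the top, transcription factors in the middle and proteins that hold, carry or bind the small subunit at the bottom. Diamonds with bars are limma estimates with 95% intervals (orange, called; grey, not called), small marks are the BSA arrays (circle, square and triangle for replicates 1, 2 and 3) relative to the control mean, and the dotted line is the median of all genes. RFX1, ROX1 and IXR1 lie to the right and WTM1 and MEC1 furthest to the left.

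Of the genes that place the small subunit in the cell, WTM1 and KAP122 fell and DIF1 did not pass. WTM1, the nuclear anchor of Rnr2 and Rnr4, read 9.97, 9.94 and 9.98 in the controls and 8.61, 8.98 and 8.91 with BSA. All BSA arrays lay below the controls, which were nearly alike, and the difference was -1.13 ± 0.09 (SE; limma adjusted p = 2.93e-05). Only 0.919% of all genes had a lower one. Its neighbour and paralog WTM2 went the other way, by 0.52 ± 0.09 (limma adjusted p = 0.000922), from a dim control mean of 6.49.

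KAP122, the importin that takes Wtm1 into the nucleus, changed by -0.47 ± 0.05 (limma adjusted p = 9.56e-05), from a dim control mean of 6.42 to 5.95. DIF1, which promotes import of the small subunit, was at 0.11 ± 0.07 (limma adjusted p = 0.156) and passed as higher after quantile normalization (adjusted p = 0.0278), centring on the median deviation (adjusted p = 0.0176) and cyclic loess (adjusted p = 0.00898). HUG1, a small damage-induced inhibitor that binds the small subunit and is encoded next to SML1, was dim, with means of 5.64 and 5.54, and did not pass (-0.10 ± 0.06, limma adjusted p = 0.201). Its sign turned with arrays centred on the median deviation (0.035), and with array weights it passed as lower (-0.15, adjusted p = 0.0166). RAD6, an enzyme of the ubiquitin route that removes Sml1, rose by 0.69 ± 0.11 (limma adjusted p = 0.000583). UBR2 and MUB1, which stand beside it in the list, did not rise. UBR2 changed by -0.30 ± 0.06 (limma adjusted p = 0.00311), and MUB1 did not pass (-0.12 ± 0.08, limma adjusted p = 0.205). The test called 2 of these 8 genes higher and 3 lower, around a median of -0.11, beside 28.3% higher and 47.1% lower over all genes.

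Of 9 genes that build the iron cofactor or supply electrons to the enzyme, limma called 5 higher and 2 lower. Their median was 0.15, against -0.13 for all genes, of which 28.3% were called higher and 47.1% lower. DRE2, an iron-sulfur protein that helps form the radical cofactor of Rnr2, read 7.83, 8.18 and 8.18 in the controls and 10.06, 9.53 and 9.83 with BSA, a rise of 1.74 ± 0.15 (SE; limma adjusted p = 3.27e-05). Its electron donor TAH18 changed by -0.38 ± 0.06 (limma adjusted p = 0.000724), from a dim control mean of 6.54 to 6.16. Of the thioredoxin genes, whose products can reduce the large subunit after each round of catalysis, TRX2 rose by 0.66 ± 0.05 and TRX1 fell by 0.88 ± 0.09 (limma adjusted p = 2.37e-05 and 8.06e-05).

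In the short list of iron-dependent regulators, limma called 3 of 4 genes higher and 0 lower (0 lower, too, at a p under 0.05 before adjustment). The list median was 0.67, and over all genes 28.3% were called higher and 47.1% lower. At an adjusted p under 0.01, 1 gene of the list was called higher. The list was written with earlier results of these data known, so its count shows no trend of iron-dependent genes in general. AFT2 rose by 0.90 ± 0.05 (limma adjusted p = 7.86e-06) and AFT1 by 0.44 ± 0.12 (limma adjusted p = 0.0113); both encode activators of iron uptake genes. TIS11, also named CTH2, encodes a protein that destabilises mRNAs when iron is short; it was singled out after its values were seen. It read 9.76, 8.30 and 8.27 in the controls and 9.84, 10.01 and 9.97 with BSA, so that control replicate 1 lay just below the BSA arrays and the other controls far below (1.16 ± 0.36, limma adjusted p = 0.0202). TIS11 no longer passed when replicate 2 or replicate 3 of either group was left out (limma adjusted p = 0.0557 to 0.0628) and with control replicates 2 and 3 as 1 sample (0.92, adjusted p = 0.0628), and without control replicate 1 the difference was 1.66.

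**Figure D4:**
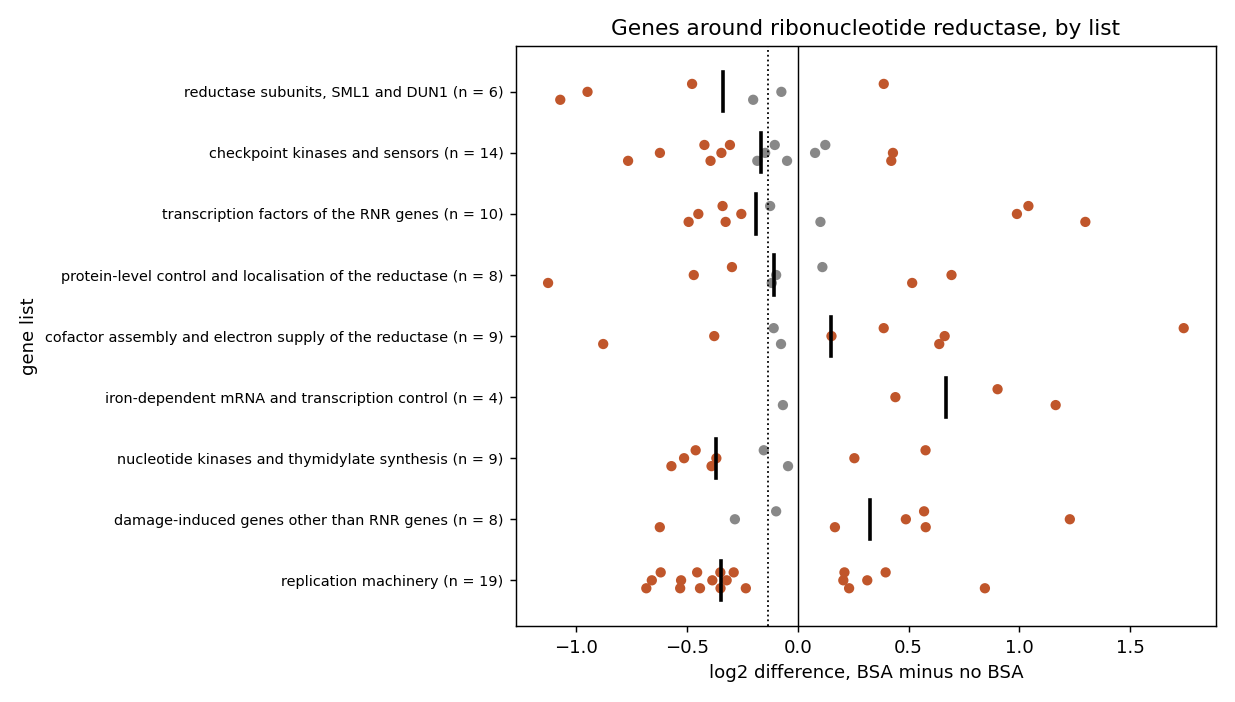
Log2 difference, BSA minus no BSA (horizontal axis), of each gene in 9 groups (vertical axis): the 6 genes described and 8 lists of genes around them. Points are genes (orange, called; grey, not called), black bars are group medians and the dotted line is the median of all genes, -0.13. Replication and nucleotide genes lie mostly to the left, and damage-induced and iron-dependent genes mostly to the right. The lists were written with earlier results of these data known.

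Nucleotide and replication genes act beside or after the enzyme. Of 9 genes of nucleotide kinases and thymidylate synthesis, 5 fell and 2 rose, around a median of -0.37 (-0.23 against the median of all genes). The guanylate kinase gene GUK1 changed by -0.57 ± 0.07 and the dihydrofolate reductase gene DFR1 by -0.39 ± 0.06 (limma adjusted p = 0.000138 and 0.000786). YNK1, a nucleoside diphosphate kinase, rose by 0.58 ± 0.07 and CDC8, thymidylate kinase, by 0.26 ± 0.07 (limma adjusted p = 0.000146 and 0.00957). Of 19 genes of the replication machinery, 13 fell and 6 rose, around a median of -0.35 (-0.22 against the median of all genes). Both counts stand beside 47.1% called lower and 28.3% called higher over all genes. RFA3 (-0.68 ± 0.07) and RFA2 (0.84 ± 0.08), subunits of the same single-strand DNA binding complex, moved in opposite directions. RFA1, which encodes the largest subunit of that complex, rose by 0.40 ± 0.05, and POL12, of the polymerase alpha and primase complex, changed by -0.53 ± 0.05.

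Of 8 other genes known to be induced by DNA damage, limma called 5 higher and 1 lower, around a median of 0.33 (0.46 against the median of all genes). Over all genes, 28.3% were called higher and 47.1% lower. The list was written with earlier results of these data known, so its count shows no trend of such genes in general. RAD54, a motor protein of recombination repair, read 7.74, 7.96 and 8.03 in the controls and 8.89, 9.25 and 9.28 with BSA, a rise of 1.23 ± 0.12 (SE; limma adjusted p = 6.19e-05). The groups were apart by more than either of them spanned. DDI1, a ubiquitin-related protease gene, rose by 0.49 ± 0.08 (limma adjusted p = 0.000742). PLM2, a gene of the G1 to S transition, fell by 0.62 ± 0.05 (limma adjusted p = 2.32e-05), from a dim control mean of 6.16 to 5.54. HUG1, which stands in this list too, did not pass. All lists are described by counts and medians only, to be read against the shares of called genes given above.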

How the data were processed

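The deposited table holds log2 expression values of 5705 probe sets on 6 arrays, for which the submitters' processing notes list R 2.10.1 and PLIER; what each did, and any normalization or filter, is not stated in the sources used here. Base 2 follows from the span of the deposited values. A deposited annotation gives each probe set's ORF name, and gene names came from the reference gene table of assembly R64. The probe set with the highest mean was kept for each of 5657 genes, without further normalization. Groups came from the labels, which call the arrays biological replicates. R 4.3.3 and limma 3.58.1 gave the fit over all genes, checked on simulated data. The members and lists were chosen with earlier results of these data known. Besides the 6 members and the direct regulators shown, each list named up to 2 called genes per direction with the smallest p, and each member its 2 nearest genes. UBR2 and MUB1 were named in addition, after their values were seen. Replicate numbers were not used to pair the arrays in the main fit (see the closing section). The number of arrays limits the precision.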

Additional observations from a re-analysis of the deposited data

How the results depend on the processing

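RNR2, RNR4, DUN1 and RNR3 kept direction and call under every alternative that held them, with differences of -1.15 to -0.94, -1.05 to -0.82, -0.51 to -0.34 and 0.31 to 0.57. RNR1 was -0.26 and called with array weights, and -0.37 to -0.055 when arrays were left out in turn. SML1 turned to 0.059 with arrays centred on the median deviation and to 0.000830 after cyclic loess; it was not called under any alternative. HUG1 turned to 0.035 with the same centring. All pairwise contrasts kept their sign under the alternatives run for them. Replicate numbers are shared by the groups, but deviations of same-numbered arrays correlated over all genes at only 0.103, 0.0187 and 0.0426. With the replicate block RNR1 had a limma adjusted p of 0.0643, and no member's call changed. In that fit damage-induced genes called lower numbered 2 in place of 1, and 4266 genes were called in place of 4268. The block lowered the SE of RNR1 from 0.162 to 0.080, of RNR2 from 0.096 to 0.0515 and of RNR4 from 0.093 to 0.053. It lowered the SE less for RNR3 and SML1 and raised it slightly for DUN1. Without the dimmer 50% of genes, RNR1 and RNR3 were not tested, which left 0 members that could be called higher in limma, and of fewer genes tested 1045 were higher and 1188 lower, against 1603 and 2665. Counts of called list genes under that filter were 0 higher and 1 lower for checkpoint genes, 1 lower for transcription factors, 1 higher and 1 lower for protein-level control, 1 lower for cofactor assembly, 1 higher and 2 lower for nucleotide genes, 0 lower for damage-induced genes, and 3 higher and 5 lower for replication. Without the dimmest 25% they were 3 lower for checkpoint genes, 1 higher for protein-level control, 1 lower for cofactor assembly and 0 lower for damage-induced genes; fewer genes were tested in both. With array weights 5 genes of protein-level control, 4 of cofactor assembly and 3 damage-induced genes were lower. Centring on the median deviation gave 4 higher checkpoint genes and cyclic loess 5, with 3 lower transcription factors. Leaving out arrays gave 1 to 2 lower damage-induced genes, 2 being reached without BSA replicate 1. At an adjusted p under 0.01, 1 iron-dependent gene was higher. The cause of the other shifts was not tested. Dim genes such as HUG1, KAP122, PLM2 and TAH18 limit what the signal can show.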
